A study of Rattus norvegicus with 48 samples.

Results

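Cd24 (Ensembl identifier ENSRNOG00000000321) is 1 of the 31998 rat genes in the deposited count table. It was selected on the readout itself: its counts in 48 muscle libraries showed a strong rise in immobilized soleus of both breeding lines and a small change in plantaris. The HI minus CTRL values of Cd24 are therefore given below as a description, with no test. The comparison between muscles rests in part on the same control libraries, whose low level in soleus favours a large rise there, and it too is a description. The comparisons between lines and the differences between rats of the same group were not used to choose the gene, and these were tested.

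The study asked how skeletal muscle of rats bred for a low or a high response to endurance training (LRT and HRT) reacts to disuse. The 24 rats, 12 per line, were females of generation 19, 14 months old, and all had been treadmill trained and received puromycin shortly before tissue collection. In the HI groups 1 hindlimb was held in a cast with the foot in plantar-flexion for 3 d, and the CTRL groups were separate rats of the same line without a cast. RNA was sequenced from tissue of soleus and plantaris, giving 8 groups (muscle, line and treatment) of 6 libraries each. The 2 lines are outcomes of selection and may differ at many genes, and muscle tissue holds blood, nerve, connective tissue and resident cells beside its fibres, so a higher share of cells that contain a transcript and more transcript per cell cannot be told apart.

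CD24 is a small, heavily glycosylated protein held in the outer cell membrane by a lipid anchor, and it has no part inside the cell. It is known as a surface marker of immature B cells, neutrophils, erythroid cells, epithelia and developing neurons, and it is also made by myoblasts and muscle fibres. Its sugar chains bind P-selectin and, where they carry sialic acid, inhibitory receptors of the Siglec family, such as Siglec-10 (Siglec10). Soleus is a slow postural muscle, and plantaris is a fast muscle of the same calf.

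The sequence before the Cd24 start site is shown because the gene differed so widely in level between muscles. The RefSeq promoter table for assembly GRCr8, a later build than the one used for counting, places these 250 bases on the plus strand at chr20:48656227-48656476, ending at the base before the annotated start. Capitals mark every match, on either strand, to the short promoter motifs whose letters are given after it.

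Cd24 promoter: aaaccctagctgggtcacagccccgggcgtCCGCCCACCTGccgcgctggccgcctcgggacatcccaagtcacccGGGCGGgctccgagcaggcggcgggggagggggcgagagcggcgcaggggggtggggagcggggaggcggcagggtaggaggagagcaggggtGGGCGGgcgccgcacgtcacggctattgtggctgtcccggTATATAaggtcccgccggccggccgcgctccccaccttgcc

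The window was 75.6% G and C, against a median of 51.2% over the 33469 promoters of the table, and 96.9% of promoters had a lower share. It held 3 GC boxes (GGGCGG). At least 3 are held by 7.41% of promoters, and at least 1 by 30.5%. A TATATA stretch began 41 bases before the start, and 5.45% of promoters have one. The single E-box (CANNTG, the core bound by myogenic factors such as MyoD) began 215 bases before the start, shared 1 base with a GC box read on the minus strand, and is a match that 65.5% of promoters have. The other TATA box spelling searched, TATAAA, had no match in this window and has one in 12.9% of promoters. The CCAAT box had none either and is found in 34.0%. These matches are a description of letters, and no binding was measured.

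The libraries held 26821698 to 36373621 estimated counts each (median 30438420), and 16960 genes passed the filter on low counts. A pair of libraries stood apart from the other 5 of their group in Cd24, namely replicate 3 of LRT CTRL plantaris and replicate 6 of HRT CTRL soleus, and the log2 differences of the fit over all libraries that rest on them are given with and without them. The fast-fibre genes that could be matched to an identifier were all lower in CTRL soleus than in CTRL plantaris in both lines (5 of 5, where 17.0% of all genes were lower in LRT and 18.9% in HRT). These were Pvalb, Atp2a1, Mylpf, Myoz1 and Casq1, with log2 differences from -10.46 to -1.45 and adjusted p of at most 6e-07. Of the 2 slow-fibre genes matched, Casq2, the slow and cardiac calsequestrin, was higher in soleus (log2 difference 3.25 in LRT and 3.21 in HRT, adjusted p = 8e-09 and 6.8e-09), and Pln, the inhibitor of the calcium pump, did not pass the test (adjusted p = 0.29 and 0.4). The libraries thus carried the fast and slow markers of their labelled muscles, apart from Pln.

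In soleus, Cd24 went from a trace to a low level after 3 d of immobilization. In LRT CTRL soleus the 6 libraries read 1.79, 2.35, 3.97, 5.35, 5.65 and 5.69 CPM (counts-per-million, scaled by TMM), and in LRT HI soleus 7.73, 14.2, 17.7, 21.4, 46.7 and 70.8 CPM. All 6 HI libraries of LRT lay above all 6 CTRL libraries, an arrangement that 1.79% of the tested genes showed. Group means were 4.13 ± 1.73 and 29.7 ± 24.2 CPM (mean ± SD, n = 6 each), and the log2 fold change was 2.75 (SE 0.45, 95% interval 1.83 to 3.67), or 6.73-fold.

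In HRT CTRL soleus, 5 libraries lay between 0.53 and 0.95 CPM and replicate 6 was at 4.41 CPM. HRT HI soleus read 3.55, 3.85, 4.64, 9.04, 13.6 and 19.9 CPM. The groups overlapped through that 1 control library, which was higher than 2 of the 6 HI libraries. The means were 1.38 ± 1.5 and 9.1 ± 6.57 CPM (n = 6 each), with a log2 fold change of 2.67 (SE 0.48, 95% interval 1.7 to 3.63), or 6.35-fold. Without replicate 6 of the control group the log2 fold change was 3.51. Counting error was small beside these differences except at the lowest level: the 6 HRT CTRL soleus libraries held 17 to 139 Cd24 counts, and the smallest of these, 17, has an exact 95% Poisson interval of 9.9 to 27.2 that covers counting error only.

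The rise was of nearly equal size in both lines on the log2 scale. DELTA, the HI minus CTRL log2 fold change of LRT less that of HRT, was 0.08 in soleus (SE 0.65, 95% interval -1.24 to 1.4). The interval allows a difference of more than 2-fold in either direction, so an equal response was not shown, and without replicate 6 of HRT CTRL soleus DELTA was -0.7. On the CPM scale the means differed by 25.6 CPM (SE 9.89) in LRT and by 7.72 CPM (SE 2.75) in HRT.

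**Figure D1:**
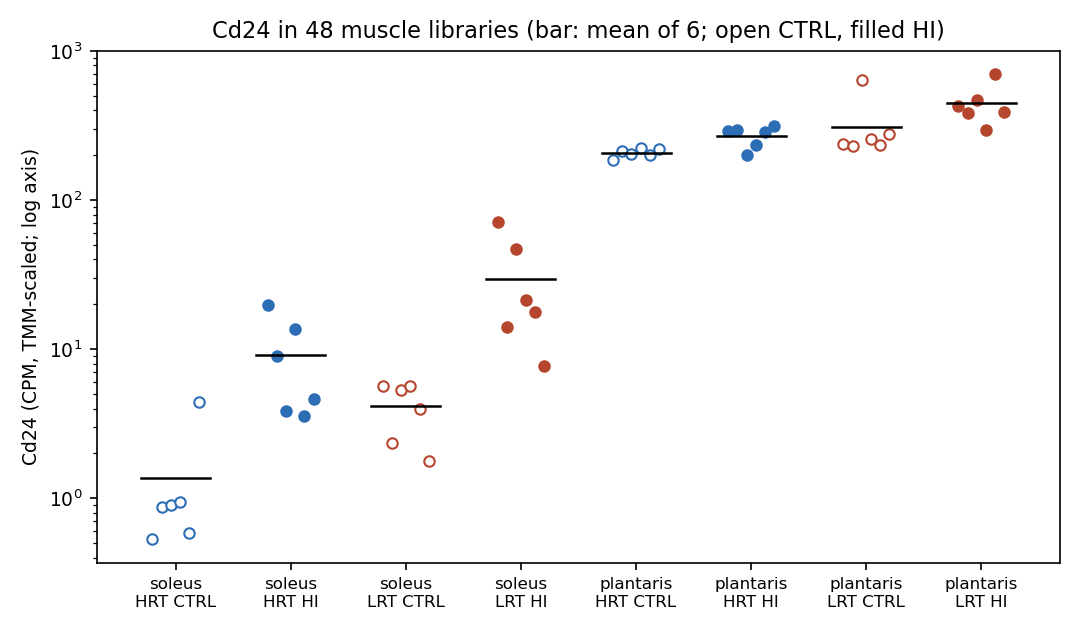
Cd24 in each of the 48 libraries (CPM on a log axis; open points CTRL, filled points HI, blue HRT, red LRT, bars the mean of 6 libraries). All plantaris libraries lie between 186 and 700 CPM, above every soleus library (0.53 to 70.8 CPM), and the lone high points are replicate 6 of HRT CTRL soleus and replicate 3 of LRT CTRL plantaris.

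Among the 16960 genes tested, Cd24 ranked 25th by HI minus CTRL log2 fold change in LRT soleus and 28th in HRT soleus. In all, 90 genes (0.531%) were called higher in HI in both soleus comparisons (log2 fold change over 1 and adjusted p under 0.05 in edgeR), and Cd24, by its selection, was one of them. These ranks and calls use the values on which the gene was selected, and nothing is read from them.

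In plantaris Cd24 was abundant with or without the cast. LRT CTRL plantaris read 231, 233, 237, 255 and 277 CPM in 5 libraries and 635 CPM in replicate 3, and LRT HI plantaris read 296, 386, 392, 428, 469 and 700 CPM. All 6 HI libraries of LRT lay above those 5 controls, and 1 of them lay above the sixth. The log2 fold change was 0.56 (SE 0.41, 95% interval -0.26 to 1.39), and 0.9 without replicate 3 of the control group. HRT CTRL plantaris ran from 186 to 225 CPM (median 209) and HRT HI plantaris from 199 to 313 CPM (median 287), with 5 of the 6 HI libraries above all 6 controls and a log2 fold change of 0.43 (SE 0.41, 95% interval -0.39 to 1.26). DELTA in plantaris was 0.13 (SE 0.57, 95% interval -1.02 to 1.28), and 0.46 without replicate 3 of LRT CTRL plantaris.

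On the CPM scale the difference of means was larger in plantaris than in soleus, although its fold change was smaller. The HI minus CTRL difference of the means in plantaris was 134 CPM (SE 85.9) in LRT and 61 CPM (SE 18.6) in HRT. In both lines this was above the difference in soleus, an order that was not tested. The LRT value was 82.9 CPM without replicate 5 of LRT HI plantaris, which read 700 CPM. The fit over all 48 libraries uses 1 estimate of spread per gene, and the SD of log2 CPM within groups was 0.7 to 1.16 in soleus and 0.1 to 0.57 in plantaris. Without replicate 6 the HRT CTRL soleus SD was 0.357 in place of 1.05, and without replicate 3 that of LRT CTRL plantaris was 0.112 in place of 0.57. Fitted on the 24 plantaris libraries alone, the plantaris differences were 0.55 in LRT (95% interval 0.09 to 1.01) and 0.41 in HRT (-0.05 to 0.87).

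**Figure D2:**
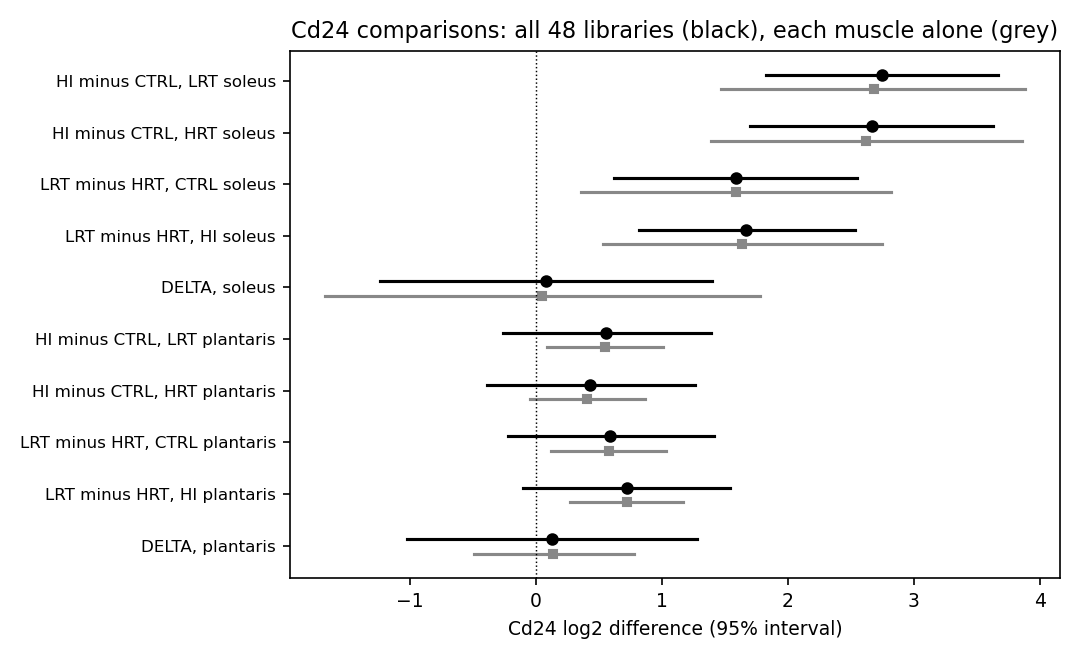
Log2 differences of Cd24 with 95% intervals, from the fit over 48 libraries (black circles) and from fits of each muscle alone (grey squares). The HI minus CTRL values of soleus are 2.75 and 2.67, by the selection of the gene, the line differences are all positive, and both DELTA values lie near 0 with wide intervals.

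The muscle difference was far larger than the change with immobilization. In CTRL rats Cd24 was lower in soleus than in plantaris by 80.7-fold in LRT (log2 difference -6.33, SE 0.52) and by 161-fold in HRT (log2 difference -7.33, SE 0.55). Genes lower in CTRL soleus at an adjusted p under 0.05 in edgeR made up 17.0% of those tested in LRT and 18.9% in HRT. All 6 plantaris libraries lay above all 6 soleus libraries in each line, as for 12.6% of genes in LRT and 13.2% in HRT. By the mean of both lines, Cd24 had the 8th lowest soleus minus plantaris difference of all genes. These control libraries are among those on which the gene was selected, so no test of its muscle difference is given. Without replicate 6 of HRT CTRL soleus the HRT difference was -8.1, and without replicate 3 of LRT CTRL plantaris the LRT difference was -6.02.

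Immobilized soleus stayed well below plantaris. Mean Cd24 in soleus was 1.33% of mean Cd24 in plantaris in LRT CTRL rats and 6.68% in LRT HI rats. The corresponding shares in HRT were 0.661% and 3.38%, and the former was 0.37% without replicate 6 of HRT CTRL soleus. A low level in soleus was common among the genes called higher in both soleus comparisons: 32 of the 90 (35.6%) were lower in CTRL soleus than in CTRL plantaris in both lines, against 2399 of all genes tested (14.1%). The 90 were called on the same CTRL soleus libraries, so these shares are given as a description.

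From highest to lowest, mean Cd24 fell in the order LRT HI plantaris (445 ± 137 CPM), LRT CTRL plantaris (311 ± 160), HRT HI plantaris (269 ± 43.2), HRT CTRL plantaris (208 ± 14.2), LRT HI soleus (29.7 ± 24.2), HRT HI soleus (9.1 ± 6.57), LRT CTRL soleus (4.13 ± 1.73) and HRT CTRL soleus (1.38 ± 1.5). The libraries of neighbouring groups overlapped at every step but one, the step of 7-fold from HRT CTRL plantaris to LRT HI soleus. The median of LRT CTRL plantaris (246 CPM) was below that of HRT HI plantaris (287 CPM), so their order by mean rests on replicate 3 of the former.

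Cd24 was higher in LRT than in HRT in all 4 comparisons between lines. In HI soleus the log2 difference was 1.67 (SE 0.42, 3.19-fold, adjusted p = 0.0075 over all genes in edgeR, where 12.2% of genes passed). Of the 6 LRT libraries 3 lay above all HRT libraries, and of the 6 HRT libraries 3 lay below all LRT libraries. Fitted on the 24 soleus libraries alone, this comparison missed the threshold (1.64, adjusted p = 0.06). In CTRL soleus the log2 difference was 1.59 (SE 0.48, 3.01-fold) and did not pass the test (adjusted p = 0.074; 1.45% of genes passed). Without replicate 6 of the HRT group it was 2.39 and passed (adjusted p = 0.0058).

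The difference between lines in plantaris was smaller. All 6 LRT CTRL plantaris libraries (231 to 635 CPM) lay above all 6 HRT CTRL libraries (186 to 225 CPM), an order that 1.83% of genes showed. The log2 difference of 0.59 (SE 0.4) did not pass across all genes (adjusted p = 0.65; 0.525% of genes passed), and it was 0.26 without replicate 3 of LRT. In HI plantaris 5 of the 6 LRT libraries lay above all HRT libraries, and the log2 difference of 0.72 (SE 0.41) did not pass either (adjusted p = 0.34; 2.42% of genes passed). An exact 2-sided permutation test of mean log2 CPM, with 6 libraries against 6, takes the spread of each comparison from its own libraries. The exact permutation p was 0.0022 in CTRL plantaris, the smallest that the 924 arrangements allow, 0.0043 in HI plantaris, 0.011 in CTRL soleus and 0.035 in HI soleus. After Benjamini-Hochberg adjustment over these 4 exact tests alone the values were 0.0086, 0.0086, 0.015 and 0.035. Over all genes tested, the difference in HI soleus passed in edgeR with all 48 libraries but not with soleus alone, and that in CTRL soleus passed with DESeq2 (1.61, adjusted p = 0.023) but not in edgeR with all 48 libraries. The difference in CTRL plantaris, 0.47 in mean log2 CPM, was smaller than the SD of the LRT group (0.57), which holds replicate 3.

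Rats of 1 group differed in soleus Cd24, most widely in the HI groups once replicate 6 of HRT CTRL was left out. The highest library was 9.16 times the lowest in LRT HI soleus and 5.61 times the lowest in HRT HI soleus. The coefficient of variation was 81.2% and 72.2% in these groups, 41.8% in LRT CTRL soleus, and 109% in HRT CTRL soleus, which fell to 25.3% without replicate 6. In plantaris it ran from 6.81% in HRT CTRL to 51.3% in LRT CTRL, and the latter was 7.98% without replicate 3.

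To see what accompanied these differences, the deviation of each rat from its group mean was compared between Cd24 and 12 genes, RNA integrity (RIN) and library total, 14 relations over the 12 HI soleus libraries. The genes were chosen with results of these data known. One relation passed. Hdac4, a class II histone deacetylase known to rise in denervated muscle, was higher in the rats with more Cd24 (Pearson r = 0.904, permutation p = 0.0011, adjusted p = 0.015; Spearman rho = 0.888, permutation p = 0.0013, adjusted p = 0.018). The correlation was 0.94 within LRT and 0.856 within HRT, and 0.861 without the 2 rats farthest from the median in Hdac4. With 1 library left out the relation passed in 9 of 12 cases, and it missed the threshold without replicate 1, 3 or 6 of LRT HI soleus (r = 0.883, 0.897 and 0.873, adjusted permutation p = 0.062, 0.05 and 0.087). Spearman's rho passed in 8 of the 12 cases (highest adjusted permutation p = 0.21).

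Hdac4 itself was 25.9, 46.3, 52, 66.7, 170 and 181 CPM in LRT HI soleus, where the 2 highest values belonged to the rats with the 2 highest Cd24 values (replicates 3 and 1). It was 27, 36, 37.6, 89.7, 109 and 124 CPM in HRT HI soleus, where the 3 highest values belonged to the rats with the 3 highest Cd24 values. Relative to the group means, 5 rats stood above a gap in Hdac4 (0.591 to 1.35 log2 units) and 7 below it (-1.45 to -0.091). Also relative to the group means, all 5 had more Cd24 than any of the 7 (lowest 0.296 against highest -0.089). Among the 7 rats below the gap the relation did not pass (r = 0.729, exact permutation p = 0.06, and rho = 0.75, exact permutation p = 0.066).

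**Figure D3:**
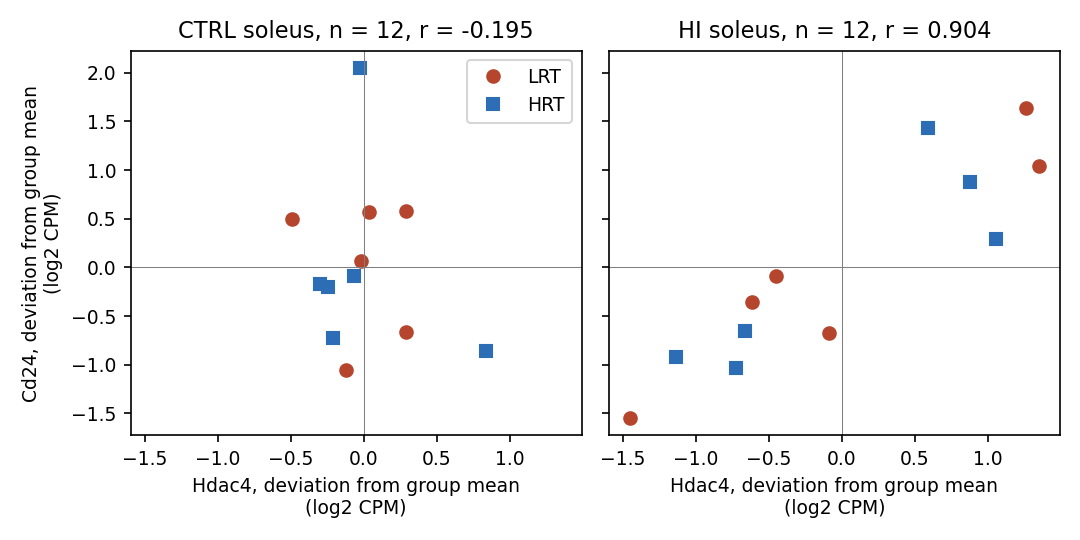
Cd24 against Hdac4 in CTRL soleus (left) and HI soleus (right), each point 1 rat as its deviation from its group mean in log2 CPM, red circles LRT and blue squares HRT. In HI soleus the points rise together (r = 0.904), with 5 rats apart at the upper right, and in CTRL soleus they do not (r = -0.195). The CTRL value is 0.213 without the 2 rats farthest from the median in Hdac4.

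In the 12 CTRL soleus libraries none of the 14 relations passed, and that with Hdac4 was r = -0.195 (permutation p = 0.52, adjusted p = 0.9) and rho = 0.0769 (permutation p = 0.82, adjusted p = 0.9). Without the 2 rats farthest from the median in Hdac4, this r was 0.213. The difference between the HI and CTRL correlations was not tested. Hdac4 varied little in CTRL rats (11.9 to 20.5 CPM in LRT and 13.9 to 30.8 CPM in HRT), and its own HI minus CTRL log2 fold change was 2.44 in LRT soleus and 2.02 in HRT soleus (adjusted p = 0.00031 and 0.002).

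The other 13 relations in HI soleus did not pass. The largest were with Myod1, the myogenic transcription factor (r = 0.68, adjusted permutation p = 0.1), Ampd3, AMP deaminase 3 (r = 0.657, adjusted permutation p = 0.14), and Gadd45a, a growth arrest and DNA damage protein (r = 0.587, adjusted permutation p = 0.21). Musk, the receptor kinase of the neuromuscular junction, had r = 0.543, the cell cycle inhibitor Cdkn1a 0.434, Runx1 0.403 and Myog 0.0625 (adjusted permutation p from 0.21 to 0.88). With 1 library left out, r ran from 0.307 to 0.838 for Musk and from 0.486 to 0.852 for Gadd45a, each passing in 1 of 12 cases, from 0.251 to 0.771 for Runx1 and from -0.0624 to 0.336 for Myog. Arrdc2, an arrestin-like gene, had r = -0.331 (adjusted permutation p = 0.38), and -0.618 to -0.121 with 1 library left out. The range for Cdkn1a was 0.357 to 0.682. The neutrophil gene S100a9 had r = 0.535 (adjusted permutation p = 0.21), with 0.387 in LRT and 0.688 in HRT. Siglec10 had r = 0.344 (adjusted permutation p = 0.38), with 0.902 in LRT and -0.052 in HRT, a difference that was not tested, and 0.174 to 0.727 with 1 library left out. Technical measures did not pass either: r was -0.146 with RIN and -0.504 with library total (adjusted permutation p = 0.7 and 0.22). With 1 library left out, r with RIN ran from -0.34 to 0.0273.

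**Figure D4:**
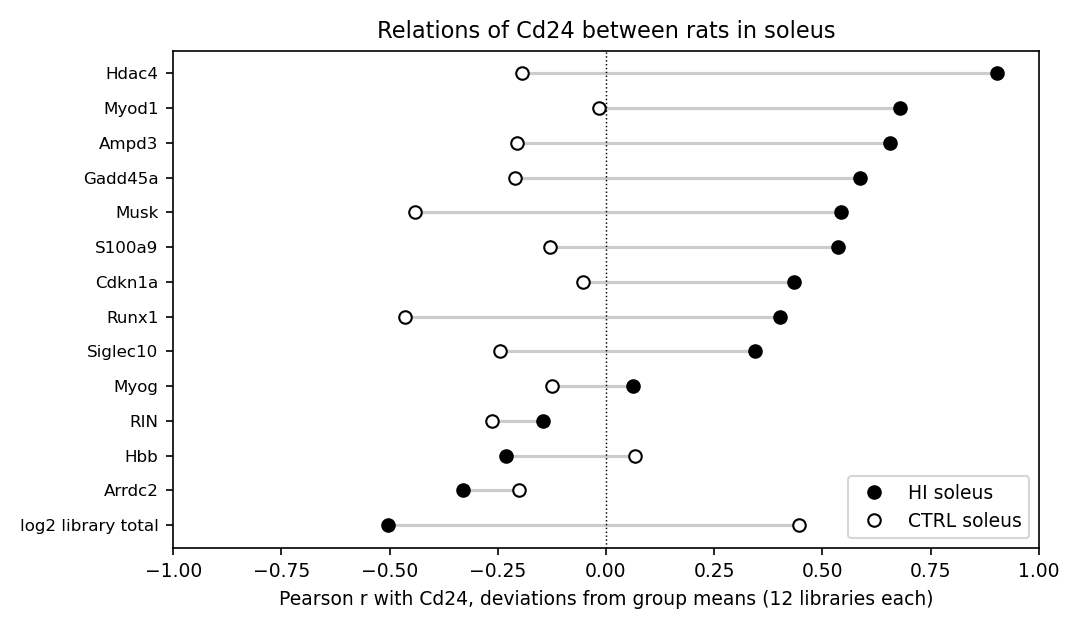
Pearson r of Cd24 with 12 genes, RIN and library total over 12 HI soleus libraries (filled) and 12 CTRL soleus libraries (open), as deviations from group means. Hdac4 in HI soleus (0.904) is the one relation that passed the test, and its CTRL value is -0.195.

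Relations with the 5 fast-fibre genes were added after the muscle difference of Cd24 had been seen. Casq1, a calsequestrin listed here with the fast-fibre genes, was not confined to fast muscle. Its CTRL means were 634 CPM in LRT and 560 CPM in HRT soleus, beside 2130 and 1540 CPM in plantaris. In HI soleus, Casq1 was lower in rats with more Cd24 (r = -0.825, permutation p = 0.0026, adjusted p = 0.013 over 5 relations, and rho = -0.769, adjusted permutation p = 0.041). The correlation was -0.822 in LRT, -0.86 in HRT and -0.717 without the 2 rats farthest from the median. It missed the threshold without replicate 1 of LRT HI soleus, the rat with the most Cd24 (r = -0.763, adjusted permutation p = 0.06), and its rho missed the threshold in 6 of the 12 cases with 1 library left out (highest adjusted permutation p = 0.14). Casq1 was 305 to 603 CPM in LRT HI soleus and 353 to 514 CPM in HRT HI soleus, with the lowest value of each group in the rat with the most Cd24. No slow-fibre gene was among the relations. The slow-fibre gene Casq2 was 104 to 489 CPM in LRT HI soleus and 127 to 451 CPM in HRT HI soleus. In the rat with the most Cd24 it was 108 CPM in LRT and 127 CPM in HRT. In the rat with the least Cd24 it was 489 and 440 CPM. A relation of Casq2 with Cd24 was not tested. Pvalb (r = 0.469), Atp2a1 (0.578), Mylpf (0.22) and Myoz1 (0.0435) did not pass (adjusted permutation p from 0.16 to 0.9), and none of the 5 passed in CTRL soleus, where Casq1 had r = 0.163. With 1 HI library left out, r ran from 0.308 to 0.658 for Pvalb and from 0.386 to 0.725 for Atp2a1. It ran from -0.0136 to 0.414 for Mylpf and from -0.263 to 0.27 for Myoz1, and none of these passed. None of the 5 fast-fibre genes was thus higher, past the test, in rats with more Cd24.

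Over all 48 libraries, 111 of the 16959 other genes had a Pearson r above 0.9 with Cd24 in log2 CPM, 16 of them with a gene symbol. These correlations are a description, with no test: the 48 libraries fall into 2 muscles, and much of each r is the step between them. The genes most alike were ENSRNOG00000006523 (r = 0.967) and ENSRNOG00000014832 (0.966), which have no symbol in the tables used here. The named genes most alike were Gpcpd1, a glycerophosphocholine phosphodiesterase (0.955), Rabep2, an endosomal Rab5 effector (0.955), Pvalb, the calcium buffer parvalbumin of fast fibres (0.955), Klhl21, a ubiquitin ligase adaptor (0.949), Tppp2, a tubulin polymerization promoting protein (0.947), Atp2a1, the fast-fibre SERCA1 calcium pump (0.936), Chac1, a glutathione-degrading stress gene (0.935), and Slc43a1, a transporter of branched-chain amino acids (0.926).

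Within the 24 soleus libraries the likeness of these 8 named genes ran from 0.621 (Atp2a1) to 0.852 (Slc43a1), and within the 24 plantaris libraries from 0.03 (Rabep2) to 0.632 (Tppp2). After removal of all 8 group means it was 0.429 (Slc43a1) to 0.601 (Tppp2), and since the genes were chosen on the same libraries nothing is read from these values. Of these genes Chac1 came closest to Cd24 in its HI minus CTRL difference in soleus, with mean CPM of 1.61 and 8.07 in LRT (log2 fold change 2.35, SE 0.4) and 1.44 and 8.11 in HRT (2.51, SE 0.4). Pvalb differed by a similar amount in LRT, 1.5 and 14.2 CPM in LRT (3.23, SE 0.56) against 0.967 and 2.53 CPM in HRT (1.47, SE 0.59). Gpcpd1 differed by 1.1 and 1.46, Klhl21 by 1.14 and 0.84, and Slc43a1 by 1.08 and 1.09 in LRT and HRT. The LRT values were smaller for Rabep2 (0.38, with 1.22 in HRT), Tppp2 (0.68, with 1.49) and Atp2a1 (0.19, with 0.81). Tppp2 was near the floor in soleus, with group means of 0.105 to 0.303 CPM. In plantaris Chac1 had HI minus CTRL log2 fold changes of 1.27 (SE 0.34) in LRT and 0.35 (SE 0.34) in HRT. Those of Cd24 there were 0.56 and 0.43.

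**Figure D5:**
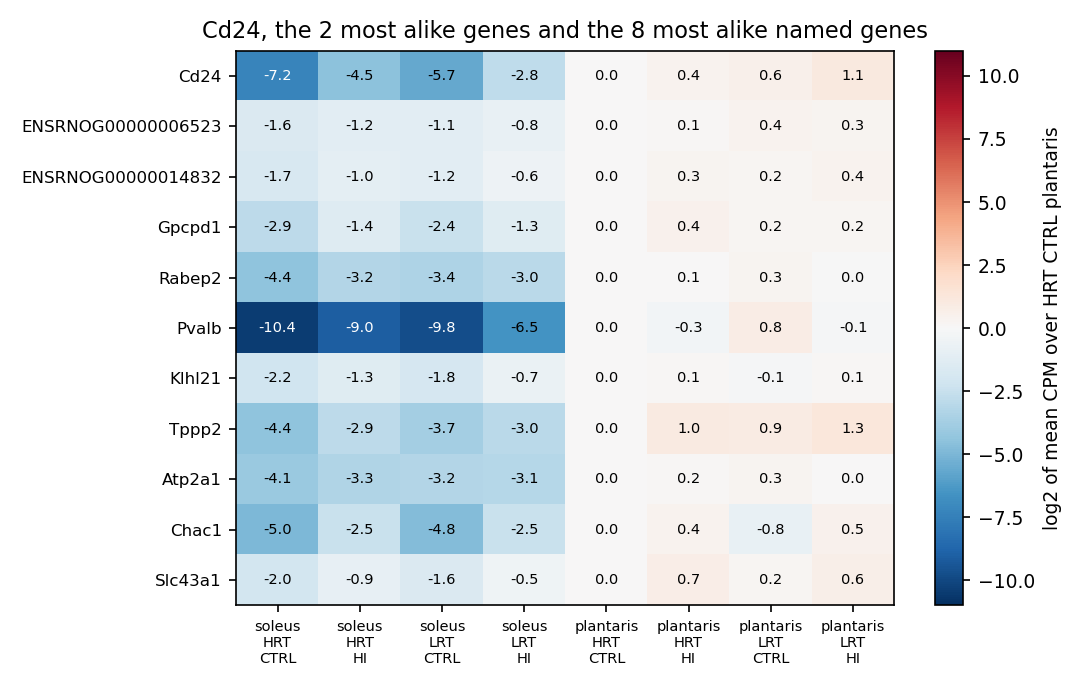
Group means of Cd24, of the 2 genes most like it over 48 libraries and of the 8 most like it among genes with a symbol, each as log2 of its mean CPM over that of HRT CTRL plantaris (colour and printed value). All are lower in the 4 soleus groups than in HRT CTRL plantaris, and within soleus each is higher in HI than in CTRL of the same line.

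Of 12 genes listed for CD24 binding and sialic acid, 5 could be matched to an identifier, and 0 of the 5 were called higher in both soleus comparisons, which is near the 0.531% of all genes so called. Their symbols were paired through tables of genes that the study had called on these samples, so their directions are not independent evidence. Here and below, list genes that rose or fell, and the shares of all genes beside them, are by adjusted p under 0.05 alone. No limit on the log2 fold change was set for these, nor for calls kept or lost with 1 library left out. In soleus none rose or fell in LRT and 1 rose in HRT, against a background of 7.36% higher and 6.58% lower in LRT and of 7.95% higher and 8.23% lower in HRT. In plantaris 4 of 5 fell in LRT and 3 of 5 in HRT, where 13.6% and 5.85% of all genes fell and 15.1% and 5.11% rose. Siglec10, the inhibitory receptor of sialylated CD24, was 1.97 ± 0.678 and 1.5 ± 0.562 CPM in LRT CTRL and HI soleus, and 2.75 ± 0.784 and 1.96 ± 1.17 CPM in HRT (n = 6 each), with overlapping libraries. It did not pass in soleus (log2 fold change -0.33 and -0.44, adjusted p = 0.5 and 0.3) and fell in plantaris (-0.91 in LRT and -1.04 in HRT, adjusted p = 0.019 and 0.022). The median log2 fold change of the 5 genes in soleus was -0.33 in LRT and -0.13 in HRT, beside 0.013 and 0.01 over all genes.

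Markers of other cells that can carry CD24 were read beside the rise in soleus, and these lists too were matched only in part and through genes the study had called. Erythroid genes (6 of 6 matched) rose in HRT soleus (6 of 6, median log2 fold change 2.94) and not in LRT soleus (0 of 6, median 0.51), beside 7.95% and 7.36% of all genes called higher. Without replicate 5 of HRT HI soleus 4 of 6 rose, with a median of 1.64, an alternative chosen after seeing the data. Their summed level was 163 to 611 CPM in HRT CTRL soleus and 224 to 10600 CPM in HRT HI soleus, and 222 to 976 and 489 to 1450 CPM in LRT. That replicate held the 10600 CPM, and the next highest library of its group held 1560 CPM. Between HRT HI rats the globin gene Hbb and Cd24 had r = -0.645, and between LRT HI rats 0.838, a difference that was not tested. Over both lines r was -0.231 (adjusted permutation p = 0.58) and rho 0.0559 (adjusted permutation p = 0.87). With 1 library left out this r ran from -0.392 to 0.0458. Of these markers Hba-a3 was at 0 in at least 1 library of HRT CTRL soleus.

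S100a9, the one neutrophil gene matched of 6, was 0.186 to 4.94 CPM in LRT CTRL and 0.555 to 4.42 CPM in LRT HI soleus (adjusted p = 0.7). In HRT it rose from 0.0935 to 3.23 CPM in CTRL to 1.32 to 18.9 CPM in HI (log2 fold change 2.35, adjusted p = 0.021), and it did not pass without replicate 6 of HRT CTRL (2.11) or replicate 4 of HRT HI soleus (1.58). Of 7 macrophage and monocyte genes matched of 10, 1 rose in LRT soleus and 5 rose in HRT soleus (7.36% and 7.95% of all genes), with a summed level of 13.5 to 36.4 CPM and 16.7 to 34.7 CPM in LRT CTRL and HI, and of 14.2 to 27.6 CPM and 16.8 to 47.8 CPM in HRT. With 1 library left out, 0 to 2 rose in LRT and 3 to 6 in HRT, the fewest without replicate 1 of HRT HI soleus. The chemokine Ccl7 was the one called in both lines (1.17 and 1.21, adjusted p = 0.042 and 0.031), and its call was lost in 7 of 12 cases in LRT and 5 of 12 in HRT with 1 library left out (highest adjusted p = 0.12 and 0.082). Of 2 B cell genes matched of 7, 1 rose in LRT soleus and 0 in HRT soleus, against the same shares of all genes (median log2 fold change 1.21 and 1.15), and 1 rose in HRT without replicate 1 or 2 of the CTRL group, with a summed level of 0.412 to 1.08 CPM and 0.529 to 2.2 CPM in LRT, and of 0.456 to 1.54 CPM and 0.986 to 2.64 CPM in HRT. Of 3 T cell genes matched of 7, 1 rose and 1 fell in LRT and 1 rose in HRT, where 6.58% and 8.23% of all genes fell, and Tcf7, a T cell factor that muscle can also express, was called in both (1.32 and 1.13, adjusted p = 0.00082 and 0.0033). In HRT 1 T cell gene also fell without replicate 1 of the CTRL group or replicate 3 of the HI group. The summed T cell genes were 8.76 to 10.9 and 5.6 to 9.98 CPM in LRT CTRL and HI and 8.94 to 12.3 and 6.45 to 12.8 CPM in HRT.

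In these comparisons 7.36% of all genes rose and 6.58% fell in LRT soleus, and 7.95% rose and 8.23% fell in HRT soleus. Of 8 epithelial genes matched of 12, 3 rose and 1 fell in LRT soleus and 1 rose and 1 fell in HRT soleus, with summed levels of 16 to 23.9 and 20.8 to 50.7 CPM in LRT CTRL and HI and of 17.4 to 29.4 and 18.3 to 32.6 CPM in HRT. Grhl1, a grainyhead transcription factor, was called in both (1.13 and 1.19, adjusted p = 0.015 and 0.0092), and its call was lost in LRT without replicate 1 or 3 of the HI group (highest adjusted p = 0.087) and in HRT without replicate 1 of the HI group (0.083). The gene that fell in both, Tspan1 (-0.87 and -1.09, adjusted p = 0.041 and 0.011), passed in 2 of 12 cases in LRT and 11 of 12 in HRT with 1 library left out. Over these cases 2 to 4 of the epithelial genes rose in LRT and 0 to 2 in HRT. Of 4 nerve and Schwann cell genes matched of 8, 1 rose in LRT and 1 fell in HRT, although with 1 library left out 1 also fell in LRT in 2 of 12 cases (without replicate 2 or 6 of the HI group), 1 rose in HRT without replicate 1 or 2 of the CTRL group or replicate 3, 5 or 6 of the HI group, and 0 fell there without replicate 1 of the HI group. Their sum was 13.7 to 16.4 and 12.2 to 46.3 CPM in LRT and 14.2 to 31.5 and 18.6 to 80.1 CPM in HRT. The one that rose in LRT was the axonal adhesion gene Cntn2 (mean 3.1 and 22.3 CPM in LRT CTRL and HI, log2 fold change 2.82, adjusted p = 0.00019), which went from 10.1 to 25.1 CPM in HRT without passing (1.26, adjusted p = 0.062). The one that fell in HRT was Gap43, a growth cone protein (-1.22, adjusted p = 0.015). In LRT Nfasc went from 6.41 to 3.57 CPM, Gap43 from 1.56 to 0.77 and Gpm6b from 3.54 to 3.82 without passing. The median log2 fold change of the 4 was -0.32 in LRT and 0.18 in HRT. The part of any of these cells in the Cd24 difference was not tested.

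Muscle genes that respond to loss of nerve or load were a mixed group in soleus. Of 10 matched of 17, 3 rose and 1 fell in LRT, and 3 rose and 2 fell in HRT (median log2 fold change 0.47 and 0.35). One of the 2 that fell in HRT, Myf6, lost its call in 8 of 12 cases with 1 library left out. Of all genes 7.36% rose and 6.58% fell in LRT, and 7.95% rose and 8.23% fell in HRT. Beside Hdac4, Gadd45a rose in both soleus comparisons (1.96 and 1.67, adjusted p = 0.0037 and 0.013), from 9.08 to 14.1 CPM in LRT CTRL to 22.9 to 87 CPM in LRT HI, and from 8.6 to 12.7 CPM to 18.6 to 46.2 CPM in HRT. Colq, the collagen tail that anchors acetylcholinesterase at the synapse, fell in both (-1.72 and -2.2, adjusted p = 0.0032 and 0.00037). Arrdc2, a gene of the relation list, rose in both (1.4 and 3.06, adjusted p = 0.0047 and 2.4e-07). Cdkn1a rose in LRT (1.33, adjusted p = 0.026, lost without replicate 4 of the CTRL group or replicate 3 or 5 of the HI group) and Myod1 in HRT (1.26, adjusted p = 0.0072), and Myog, Runx1, Musk and Ampd3 passed in neither (adjusted p from 0.19 to 0.99).

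In plantaris, where the fold change of Cd24 was small, 6 of these 10 muscle genes rose and 1 fell in LRT, and 3 rose and 1 fell in HRT, where 15.1% and 5.11% of all genes rose and 13.6% and 5.85% fell. Ache, acetylcholinesterase, fell in both lines (-1.91 and -1.39, adjusted p = 0.00026 and 0.013), and Myog (2.62, adjusted p = 4.4e-05), Musk (1.11, adjusted p = 0.041) and Cdkn1a (1.14, adjusted p = 0.033) passed in LRT only, with 1.26, 1.14 and 1.09 in HRT. From this list Hdac4 (2.83 and 2.29, adjusted p = 1.5e-05 and 0.0012 in LRT and HRT), Gadd45a (3.29 and 2.07, adjusted p = 6.3e-06 and 0.0063), and Runx1 (3.15 and 1.72, adjusted p = 8.2e-05 and 0.046) rose in both lines, as did Ampd3 of the relation list (4.76 and 2.82, adjusted p = 5.2e-06 and 0.0057). In HRT plantaris the CTRL and HI medians of Ampd3 were 15.9 and 23.1 CPM, with the highest HI library at 469 CPM. Those of Runx1 were 2.12 and 3.96 CPM, with the highest HI library at 28.8 CPM. Each log2 fold change of Hdac4, Gadd45a, Runx1 and Ampd3 was above that of the same gene and line in soleus, a difference that was not tested, beside Cd24 values of 0.56 and 0.43 in plantaris. Replicate 4 of HRT HI plantaris held the highest Hdac4 (226 CPM, next 188), Gadd45a (82.2 CPM, next 26.3) and Ampd3 (469 CPM, next 152) of its group. These plantaris fits were not repeated with 1 library left out, so the part of replicate 4 in the order in HRT was not tested.

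Of the 7 fibre-type genes matched (5 of 9 fast, 2 of 8 slow), 0 were called in both soleus comparisons, near the 0.531% of all genes called higher in both. Of the 5 fast-fibre genes, 1 rose in LRT soleus and 0 in HRT soleus (7.36% and 7.95% of all genes), although in HRT 1 rose without replicate 1, 2 or 6 of the CTRL group or replicate 5 of the HI group and 2 rose without replicate 6 of the HI group. The median log2 fold change was -0.15 and 0.47. The one that rose in LRT was Pvalb, 0.373 to 3.83 CPM in LRT CTRL and 2.68 to 43.1 CPM in LRT HI soleus (3.23, adjusted p = 2e-04), and it did not pass in HRT (1.47, adjusted p = 0.079). Mylpf (-0.51 and 0.47), Myoz1 (-0.15 and 0.43), Atp2a1 (0.19 and 0.81) and Casq1 (-0.55 and -0.31) did not pass in either line (adjusted p from 0.066 to 0.76). In LRT plantaris 3 of the 5 fell, namely Mylpf (-1.22), Myoz1 (-1.01) and Casq1 (-1.49, adjusted p = 0.017, 0.0034 and 6.6e-06), and in HRT plantaris 0 of the 5 fell, where 13.6% and 5.85% of all genes fell. Of the slow-fibre genes, Pln rose in HRT soleus (1.14, adjusted p = 0.00076) and Casq2 passed in neither (-1.01 and -0.49, adjusted p = 0.051 and 0.37). In LRT soleus 1 slow-fibre gene fell without replicate 5 or 6 of the HI group, and 1 fast-fibre gene fell without replicate 5.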

How the data were processed

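The authors deposited 1 table of estimated counts per gene for 48 libraries, 66% of whose values are not whole. Per the labels and methods, reads were quantified with Salmon 0.9.1 against Rnor_6.0 transcripts and summed per gene, and strandedness is described differently in the sources, so overlapping antisense reads may be included. Here the counts were rounded and tested with edgeR 4.0.16 (filterByExpr, TMM, quasi-likelihood test) over 8 groups with RIN as a covariate, as in the study's design, and p-values were adjusted by Benjamini-Hochberg over 16960 genes at 0.05. SE was the log2 fold change over the root of F. Log2 CPM used a prior count of 2. Relations used 100000 resamples within lines. Data were also simulated over 16767 genes from mean levels over all 48 libraries, with a change made in LRT HI soleus alone. In these edgeR recovered 97% of genes made to differ by 1.5 log2 units. The simulation did not copy levels of soleus alone, so this share does not describe a gene as low there as Cd24. The gene and all lists were chosen with earlier results of these data known. Genes named were Cd24, those most like it, list members called in both soleus comparisons (absolute log2 fold change over 1), the relation list and fibre markers, and Siglec10. Any other gene was named after its values were seen. Symbols were paired with 1148 identifiers (3.59%) through the study's gene tables. Alternatives were DESeq2 1.42.0, limma 3.58.1 (voom), other scalings, filters, covariates and single-muscle fits. Libraries labelled as replicates are separate rats, so p-values measure the spread between rats. Soleus and plantaris were taken from the same 24 rats, but labels do not pair them, and p-values and intervals between muscles treat them as independent.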

Additional observations from a re-analysis of the deposited data

Results flagged for a closer look

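In 2 of the 8 groups, 1 library lay far from the other 5 in Cd24, its gap to the nearest library being a larger share of the group's range than Dixon's 95% critical value allows for 6 samples. Chance alone would give such a value in about 1 group in 20. Replicate 3 of LRT CTRL plantaris had 635 CPM, with the next library at 277 CPM (ratio 0.886). In the same library Pvalb (3120 CPM), Myoz1 (4100 CPM), Atp2a1 (2980 CPM) and Hbb (455 CPM) were the highest of the 6, and the slow-fibre gene Casq2 was the lowest, at 23.7 CPM against 47.8 to 71.6 CPM in the others. Mylpf (10600 CPM) and Casq1 (2000 CPM) lay within the range of the other 5. Hdac4 was 24.7 CPM, with the next library at 24.6 CPM. Replicate 6 of HRT CTRL soleus had 4.41 CPM, with the next library at 0.95 CPM (ratio 0.892). In that library Hdac4 was 16.9 CPM, Pvalb 1.3 CPM, Atp2a1 202 CPM, Mylpf 622 CPM, Casq1 557 CPM and Hbb 90.2 CPM, all within the range of the other 5, and Myoz1 was 134 CPM against 60.4 to 97 CPM in the others. The part of these genes in the Cd24 values was not tested.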

How the results depend on the processing

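Direction and side of the threshold were compared under 8 other settings and with each library left out in turn. Every HI minus CTRL value of Cd24 kept its sign in all of these. Under the other settings it ran from 2.53 to 2.93 in LRT soleus, 2.56 to 2.77 in HRT soleus, 0.52 to 0.8 in LRT plantaris and 0.37 to 0.59 in HRT plantaris. With 1 library left out it ran from 2.34 to 2.99, 2.16 to 3.51, 0.39 to 0.9 and 0.39 to 0.49 in the same order. DELTA in soleus ran from -0.21 (limma-voom) to 0.16, and from -0.7 to 0.54 with 1 library left out; DELTA in plantaris ran from 0.12 to 0.21, and from -0.03 to 0.46. Library totals without TMM moved the median log2 fold change of all genes in LRT soleus from 0.013 to 0.154.

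The line difference in CTRL soleus passed with DESeq2 (1.61, adjusted p = 0.023) and with the exact permutation test (1.83, adjusted p = 0.015), and its adjusted p ran from 0.015 to 0.26 over the settings. With 1 library left out it ran from 1.41 to 2.39 and passed once, without replicate 6 of the HRT group. The line difference in HI soleus was lost when soleus was fitted alone (1.64, adjusted p = 0.06) and otherwise kept, from 1.24 to 2.13 with 1 library left out (adjusted p 0.0017 to 0.041). The line differences in plantaris passed in the exact permutation test alone, adjusted over 4 tests (0.47 in CTRL and 0.69 in HI, adjusted p = 0.0086 each), and in no fit over all genes (adjusted p up to 0.71); with 1 library left out they ran from 0.26 to 0.69 and from 0.56 to 0.81. The causes of these changes of call were not tested, beyond the adjustment over 4 tests in place of all genes. The muscle differences kept their sign in every setting (-6.36 to -6.19 in LRT and -7.67 to -7.19 in HRT). The count of 90 genes was 60 in limma-voom, 60 with soleus fitted alone, 121 without TMM, and 61 to 108 with 1 library left out.

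The number of relations that passed (1 of 14, with Hdac4) was 1 with Spearman's rho and with library totals, 0 in CTRL soleus, and 0 to 2 with 1 library left out. The relation with Hdac4 was lost without replicate 1, 3 or 6 of LRT HI soleus (highest adjusted permutation p = 0.087) although r stayed between 0.873 and 0.935. That with Casq1 was lost without replicate 1 of LRT HI soleus (adjusted permutation p = 0.06), and in CTRL soleus 0 of 5 passed.

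Replicate numbers did not pair HI with CTRL rats (mean correlation of deviations between same-numbered libraries from -0.045 to 0.003), and same-numbered soleus and plantaris libraries had mean correlations of 0.096 to 0.323, the lowest pair at -0.05. With the replicate number as a block, the HI minus CTRL differences were 2.63 (LRT soleus), 2.56 (HRT soleus), 0.64 (LRT plantaris) and 0.46 (HRT plantaris), the line differences were 1.52 (CTRL soleus), 1.59 (HI soleus), 0.55 (CTRL plantaris) and 0.72 (HI plantaris), DELTA was 0.07 in soleus and 0.17 in plantaris, the muscle differences were -6.36 (LRT) and -7.34 (HRT), and 88 genes were called in both soleus comparisons, 82 of them among the 90; no call on Cd24 changed. Depth limits the lowest levels: 5 of the 6 HRT CTRL soleus libraries held 17 to 32 Cd24 counts, and single CTRL soleus libraries held 3 counts of S100a9 and 4 of Pvalb.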
